A study of Gallus gallus with 24 samples.

Results

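The lower follicle sheath peak genes are 100 of the 17108 genes counted in the chicken sickle feather follicle, and they were chosen because they were most abundant in the lower follicle sheath. Levels are in CPM, a gene's count scaled by the total count of its library. A gene had to average at least 10 CPM over the 4 lower sheath libraries and at least 2 times its average in each of the other 5 tissues. Genes with both males above both females in all 6 tissues (96 genes), or the reverse (151 genes), were left out beforehand, and 0 of those would have passed. Of the 8633 remaining genes with at least 10 CPM in the lower sheath, 140 passed, and the 100 with the largest score were kept. The score is the lower sheath mean divided by the mean of the next highest tissue plus 0.1 CPM.

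RNA came from adult chickens with no treatment named in the labels, namely male 1 and male 2 (animals 53 and 68) and female 1 and female 2 (animals 52 and 120). Each bird gave 1 library of each of 6 tissues: the lower and the upper follicle sheath, pulp, collar epithelium, papilla ectoderm and dermal papilla. Sex and tissue thus define 12 groups of 2 birds over 24 libraries, and the birds number 1 and 2 within a sex by order of deposition only. No exact age or breed is stated in the labels. Libraries held 12514383 to 31404619 counts, and those of the lower sheath 23211981 to 27895598.

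The follicle sheath is the wall of the pit from which a feather grows. It consists of an epithelium continuous with the skin and of the connective tissue around it, and it holds the feather in the skin. Smooth feather muscles, nerves and vessels reach this wall, so a dissected piece holds more than a single cell type. The dermal papilla sits at the base of the same follicle, and the upper sheath surrounds the feather nearer to the skin surface. In such bulk samples, fewer cells of a type and less RNA per cell cannot be told apart.

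The files give genes by Ensembl identifier only, and 0 of the 17108 identifiers matched the reference table used here. The members therefore appear by identifier and without a known function, and the tissue label could not be checked against named marker genes. Few identifiers are given for each description.

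Certain libraries stood apart from the others of their tissue. The lower sheath of female 1 carried genes of the collar epithelium: the 100 collar peak genes, chosen by the same rule for the collar, summed to 5503 CPM there, against 102 to 175 CPM in the other 3 lower sheath libraries. The dermal papilla of female 1 held 2490 CPM of these genes, against 107 to 379 CPM in the other birds. In the papilla ectoderm of male 1, the 100 pulp peak genes summed to 428 CPM, against 1667 to 2628 CPM in the other 3 birds. Tests and the spread between lower sheath libraries are also given without them.

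The members ranged widely in how far they stood above the other tissues, which is a description of the choice and not a finding. Their lower sheath means ran from 10.8 to 2200 CPM with a median of 48.4 CPM, and the mean of the next highest tissue had a median of 2.39 CPM. The mean exceeded the next tissue at least 1000 times in 9 members, at least 100 times in 32, at least 10 times in 61 and at least 5 times in 76. The other 24 members stood between 2 and 5 times the next tissue.

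ENSGALG00000027177.1 had the largest score. Its lower sheath levels were 637 CPM in male 1, 801 CPM in male 2, 245 CPM in female 1 and 1166 CPM in female 2, and no other library exceeded 0.653 CPM. ENSGALG00000002907.4 came next, at 633, 610, 268 and 2190 CPM in male 1, male 2, female 1 and female 2, with at most 1.08 CPM in any library of the other tissues. Both genes were thus abundant in the lower sheath of every bird and low elsewhere, with 25 and 39 counts over the 4 pulp libraries, where 1 count in any of the 24 libraries was worth 0.0318 to 0.0799 CPM. ENSGALG00000026366.1 was the most abundant member, at 1182, 1664, 1031 and 4922 CPM in the same order of birds, and it stayed at or below 6.55 CPM in the other 20 libraries.

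At the lower end of the choice, ENSGALG00000012712.3 was the last gene kept, with a lower sheath mean of 158 CPM, an upper sheath mean of 58.9 CPM and a score of 2.68. The first gene left out, ENSGALG00000028949.1, had 30.5 CPM in the lower sheath, 11.3 CPM in the dermal papilla and also a score of 2.68. The 40 genes that passed the thresholds and were not kept had scores from 1.98 to 2.68, so that the list ends within a run of close values.

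**Figure D1:**
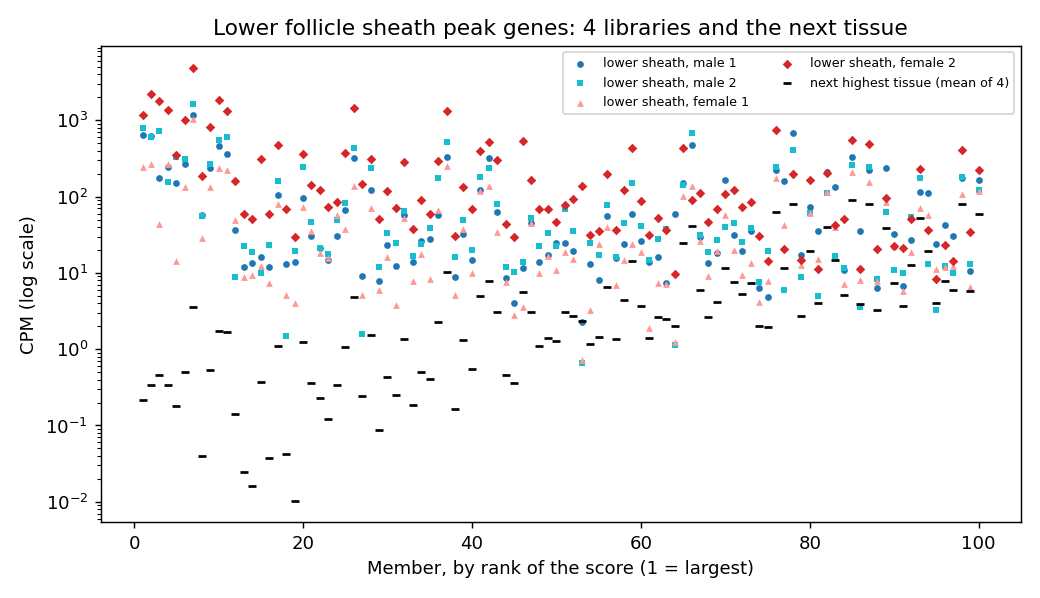
Levels of the 100 members in CPM on a log axis, ordered by rank of the score; coloured points are the 4 lower sheath libraries and black dashes the mean of the next highest tissue. Female 2 (red diamonds) lies highest for 81 members, and the dashes approach the points with rising rank.

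How far single libraries followed the group means that chose the members is given as a description. In 86 of the 100, the lowest of the 4 lower sheath libraries lay above the highest of the 20 other libraries, by more than 2 times in 66, by more than 10 times in 39 and by more than 100 times in 8. Within a bird, the lower sheath was the highest of the 6 tissues for 99 members in male 1, 99 in male 2, 99 in female 1 and 100 in female 2. It was highest in all 4 birds for 98 members. These are the libraries that the rule used, so the counts are no separate support for the peak.

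A bird that took no part in the choice gave the same measure independently. When the rule was applied to 3 birds, 86 to 92 of the 100 genes chosen were members of the full list. In the bird left out, the lower sheath was the highest of the 6 tissues for 98 (male 1), 95 (male 2), 98 (female 1) and 97 (female 2) of the 100 chosen genes. Over all genes with at least 10 CPM in the lower sheath of that bird, the corresponding shares were 11.3%, 6.96%, 6.42% and 9.84%. The lower sheath stood at least 2 times above every other tissue in the left-out bird, with at least 10 CPM there, for 75 (male 1), 76 (male 2), 55 (female 1) and 79 (female 2) of the 100 chosen genes, against 2.55%, 1.45%, 0.984% and 1.88% of all such genes. Without the 10 CPM minimum these counts were 89, 86, 83 and 81.

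The height of the peak differed strongly between the 4 lower sheath libraries. Each bird gave 1 of them, so a difference between birds cannot be told apart from a difference between dissected pieces or libraries. The members were also chosen on the mean of these same libraries, which favours genes very high in any of them. Summed over the 100 members, the lower sheath level was 11004 CPM in male 1, 12852 CPM in male 2, 6319 CPM in female 1 and 32319 CPM in female 2, which is 15623 ± 11465 CPM (SD, n = 4). These sums were 1.10%, 1.29%, 0.632% and 3.23% of the counts of the 4 libraries. The 2 females were thus the lowest and the highest of the 4 birds, with both males between them, and female 2 stood 5.11 times above female 1. Leaving out the most abundant member changed this ratio to 5.18, and scaling by TMM to 5.49. Without female 1 the highest library stood 2.94 times above the lowest, and without female 2 it stood 2.03 times above it.

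**Figure D2:**
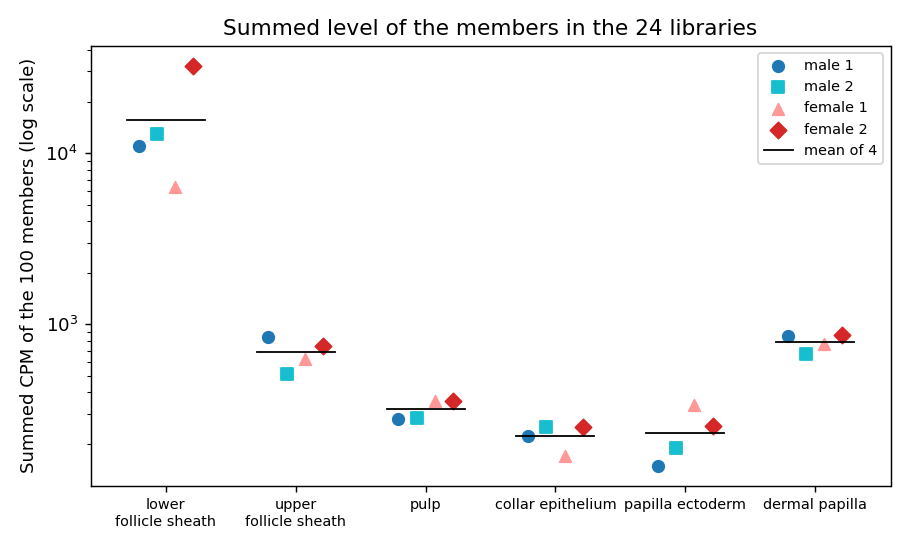
Summed CPM of the 100 members in each of the 24 libraries on a log axis, by tissue and bird, with the mean of the 4 birds as a line. The lower sheath libraries span 6319 to 32319 CPM, while all 20 libraries of the other tissues lie between 149 and 865 CPM.

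In the other tissues the same sum was lower, as the rule required, and it spread less between libraries. It was 791 ± 90.2 CPM in the dermal papilla, 684 ± 144 CPM in the upper sheath, 318 ± 43.4 CPM in the pulp, 232 ± 82.3 CPM in the papilla ectoderm and 223 ± 37.3 CPM in the collar epithelium (SD, n = 4 each). The ranges of the dermal papilla (673 to 865 CPM) and the upper sheath (515 to 847 CPM) overlapped, as did those of the collar (171 to 250 CPM) and the papilla ectoderm (149 to 338 CPM). No tissue outside the lower sheath showed a spread near 5 times between its libraries in this sum. Nearly all of it there came from the 70 members whose next tissue averaged 1 CPM or more. These held 786 CPM in the dermal papilla, 680 CPM in the upper sheath and 311 CPM in the pulp. Over the other 30 members, libraries ran from 3.59 to 10.6 CPM in the pulp and from 1.23 to 5.19 CPM in the papilla ectoderm. They ran from 2.88 to 6.81 CPM in the dermal papilla, 2.64 to 4.11 CPM in the upper sheath and 2.30 to 4.23 CPM in the collar.

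The order of the 4 lower sheath libraries was counted for each member as a description, since the mean of these libraries chose the members. Female 2 was the highest library for 81 members, male 1 for 15, male 2 for 4 and female 1 for 0. Female 1 was the lowest for 69, male 2 for 19, male 1 for 10 and female 2 for 2. Over the 8633 genes with at least 10 CPM, female 1 was the highest library for 40.2% and female 2 for 27.6%. A single full order, female 2 above male 2 above male 1 above female 1, was shared by 57 of the 100 members, against 2.46% of the 8633 genes. Without female 1, the order female 2 above male 2 above male 1 held for 66 members, against 21.0% of the 8633 genes. The mean over 4 libraries used by the rule favours genes that are very high in any of them. Without the lower sheath of female 2, 13 members fell under a threshold. Nothing is therefore read from these differences to the 8633 genes, and the part of the choice in them was not tested.

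The size of the excess is given as a description, since these genes were grouped by the library in which they were highest. Among the 81 members highest in female 2, that library stood at a median of 3.72 times the median of the other 3 birds, and the quartiles were 2.71 and 4.81 times. Their level in female 1 was at a median of 0.478 times the median of the other birds, with quartiles of 0.353 and 0.643. Summed, the 81 genes stood at 8522 CPM in male 1, 11337 CPM in male 2, 5442 CPM in female 1 and 31309 CPM in female 2. The library of female 1, lowest here, is the one with 5503 CPM of collar peak genes, and their part in the result was not tested.

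A few members lay far outside the quartiles given above. ENSGALG00000000302.4 stood at 138 CPM in female 2 and at 2.27, 0.656 and 0.732 CPM in male 1, male 2 and female 1, and ENSGALG00000009844.4 at 538 CPM in female 2 and at 11.5, 14 and 3.53 CPM in the others. For the first of these genes, 3 of the 4 birds lay below the highest collar library (3.79 CPM), so its place on the list rests on female 2. For the second, the lower sheath of female 1 lay below the dermal papilla of the same bird (8.50 CPM). These 2 genes were chosen after their values were seen, as the largest excess in female 2. At the other end, ENSGALG00000027638.1 was lowest in female 1 relative to the other birds, at 14.4 CPM against 151, 327 and 356 CPM in male 1, male 2 and female 2. ENSGALG00000028612.1 was next, at 44.2 CPM against 176, 716 and 1791 CPM.

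Another set of members was highest in a different bird, and its excess there likewise follows in part from the grouping. For 15 members male 1 was the highest library, at a median of 3.06 times the median of the other 3 birds, with quartiles of 2.62 and 3.43 times. Male 2 was at a median of 0.396 times the median of its fellows in these genes, and it was the lowest library in the 2 most frequent orders, which held 8 and 5 of the 15 genes. Their sum was 1970 CPM in male 1, against 718, 705 and 818 CPM in male 2, female 1 and female 2. ENSGALG00000026011.1 is an example, at 158 CPM in male 1, 5.90 CPM in male 2, 42.8 CPM in female 1 and 20.3 CPM in female 2. ENSGALG00000007868.4, with the largest excess in male 1, stood at 59.6 CPM there and at 1.12, 1.25 and 9.75 CPM in male 2, female 1 and female 2. None of the other 3 birds reached 10 CPM, so the place of this gene on the list rests on male 1. In male 2 and female 1 it also lay below the dermal papilla of male 1 (4.87 CPM). Both genes were picked as examples of male 1 after their values were seen. ENSGALG00000026011.1 also had the highest level in female 1 relative to the other birds, ahead of ENSGALG00000022819.1 (57.9 CPM in female 1 against 112, 13.1 and 36.7 CPM in male 1, male 2 and female 2).

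**Figure D3:**
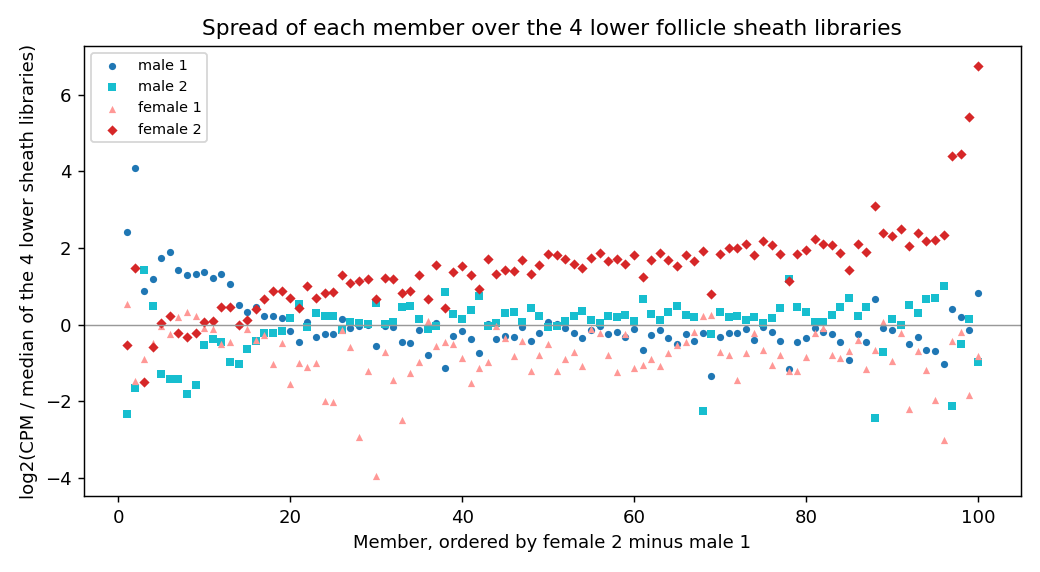
Each member's level in the 4 lower sheath libraries relative to their median, on a log2 scale, with the members ordered from the smallest to the largest difference between female 2 and male 1. Male 1 lies on top for most members on the left and female 2 on the right, where female 1 is mostly lowest.

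The sets also differed in where else they were found. The 15 members highest in male 1 had the upper sheath (11 genes) or the dermal papilla (4 genes) as their next tissue, and their summed level there was 242 ± 88.4 CPM and 200 ± 73.1 CPM (SD, n = 4). The 81 members highest in female 2 had the pulp as next tissue in 27 cases, the dermal papilla in 24, the upper sheath in 18, the collar in 8 and the papilla ectoderm in 4. These sets were made from the lower sheath values, and no test of the difference was run. The sets also differed in level. The median tissue mean of the 15 genes was 7.88 CPM in the upper sheath, 5.93 CPM in the dermal papilla and 1.32 CPM in the pulp. For the 81 genes it was 0.532, 0.678 and 0.548 CPM in the same order. The part of level in the choice of next tissue was not tested.

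In the other tissues, whose group means entered the rule but did not form the sets, the bird with the highest level was also counted. Male 1 was the highest bird in the dermal papilla for 10 of the 15 genes and in the upper sheath for 9, against 34.8% and 44.3% of all genes with at least 10 CPM and their highest lower sheath level in male 1. In the collar it was highest for 0 of the 14 genes detected there, against 43.9%. In the pulp it was highest for 4 of 15, against 32.5%, and in the papilla ectoderm for 2 of 15, against 20.4%. The summed level in the dermal papilla was 297 CPM in male 1 and 126, 209 and 168 CPM in male 2, female 1 and female 2. For the 81 genes highest in female 2, that bird was highest in the dermal papilla for 34 of 80 detected genes, against 25% of comparable genes. It was highest in the pulp for 36 of 80, against 24.7%, and in the upper sheath for 29 of 76, against 51.8%. The collar gave 23 of 73, against 16.6%, and the papilla ectoderm 16 of 75, against 20.2%. These tissues come from the same animals and share no library with the lower sheath. Levels of the 81 genes were low there, with a median tissue mean of 0.548 CPM in the pulp and 0.678 CPM in the dermal papilla. The comparable genes were not matched on level in these tissues, so nothing is read from the differences in share.

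Traces in other tissues were close to the limit of counting for part of the list. For 30 members no other tissue averaged 1 CPM, and their next tissue was the pulp in 18. Summed over these 30 genes, the lower sheath held 2779, 3698, 1455 and 10795 CPM in male 1, male 2, female 1 and female 2, whereas each of the 20 other libraries held 1.23 to 10.6 CPM. The highest of these traces was the pulp of female 2. All 4 libraries had 0 counts for 9 members in the collar, 6 in the papilla ectoderm, 5 in the upper sheath, 1 in the pulp and 1 in the dermal papilla. ENSGALG00000009844.4 had 0 counts in the collar, and the lower sheath was at least 4481-fold higher over the pooled libraries. This bound was computed from 3 counts over the collar group and covers counting error only, not the spread between birds. It rests mainly on female 2, which gave 15007 of the 15735 pooled lower sheath counts. Male 1, male 2 and female 1 gave 283, 363 and 82 counts.

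Whether the sexes differed in the lower sheath was tested over all genes with edgeR's quasi-likelihood test, using 2 birds per sex. Of the 100 members 0 passed an adjusted p of 0.05, where 0.483% of the 14077 genes tested passed (0.185% higher in males and 0.298% higher in females). Genes with the same order of the sexes in every tissue were left out of the choice of members, but not out of this test. How many of the calls are such genes was not counted, so nothing is read from the difference in share. The same holds for the shares of all genes in the sex comparisons below. At an unadjusted p under 0.05 there were 9 members, and 1237 of all genes. DESeq2 called 2 members and 2.32% of all genes. The log2 difference, male minus female, had a median of -0.64 over the members and -0.04 over all genes, and 73 members lay lower in males and 27 higher. With the 2 females as the extremes of the 4 birds, this direction depended on the bird.

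Leaving out female 2 turned the median to 1.04, with 96 of 100 members higher in males and 1 member past the threshold, as were 1.07% of all genes. Leaving out female 1, whose library carried collar genes, moved it to -1.32, with 86 of 100 members lower in males and 2 members past the threshold, as were 0.334% of all genes. Without all 3 libraries that stood apart, which include that of female 1, female 2 was again the only female in the lower sheath. The median was then -1.32, with 86 of 100 members lower in males. A sex difference of the list as a whole could therefore not be told apart from the difference between the 2 females.

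**Figure D4:**
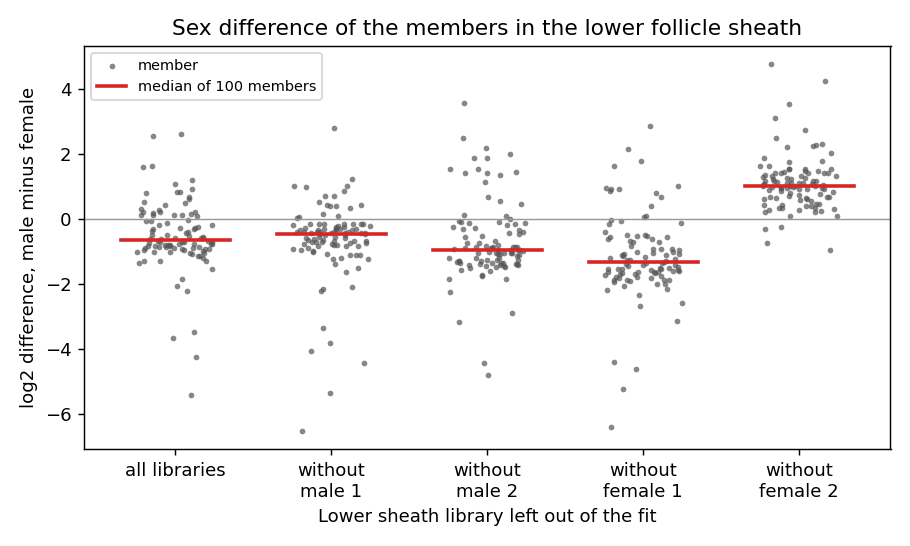
Log2 difference between male and female lower sheath for each member (grey points) and the median of the 100 members (red line), from the fit with all libraries and with each lower sheath library left out. The median is -0.64 with all libraries and lies at 1.04 only when female 2 is left out.

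The member with the smallest p was ENSGALG00000025928.1, named after its values were seen and the only member in the order male 2, male 1, female 1, female 2. It stood at 472 CPM in male 1 and 686 CPM in male 2, against 138 CPM in female 1 and 91.0 CPM in female 2, so that the males lay above the females without overlap. Its log2 difference was 2.57 ± 0.55 (SE), with an adjusted p of 0.061 by edgeR's quasi-likelihood test over all genes. Over 9 alternatives the log2 difference ran from 2.20 to 2.85, and the call passed in 1 of them, that of DESeq2 (adjusted p 0.000786). Fits that left out 1 library of another tissue are not among these 9, and in some of them a member higher in males passed. The excess over the mean sex difference in the other 5 tissues was 2.81 ± 0.68 (SE) on the log2 scale, with an adjusted p of 0.922 by the edgeR test. In the upper sheath it stood at 62.2 and 38.4 CPM in males and at 16.6 and 48.0 CPM in females, which overlap.

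In the other tissues the rule required the members to be low. The part of low counts in the number of calls there was not tested, and nothing is read from these calls. By the same edgeR test 0 members passed in the upper sheath (0.59% of all genes passed), 0 in the pulp (0.952%), 0 in the collar (0.931%) and 0 in the dermal papilla (0.398%), and 1 passed in the papilla ectoderm (2.04%). The shares higher in males and in females were 0.298% and 0.291% in the upper sheath, 0.483% and 0.469% in the pulp, 0.17% and 0.76% in the collar, 0.135% and 0.263% in the dermal papilla, and 0.796% and 1.24% in the papilla ectoderm. Unadjusted p-values under 0.05 were reached by 2, 6, 1, 3 and 10 members in these 5 tissues in that order, and by 1054, 1141, 2811, 816 and 2362 of all genes. DESeq2 called 0, 1, 0, 0 and 2 members, and 1.88%, 2.76%, 8.69%, 1.42% and 6.04% of all genes. The sex difference in the lower sheath differed from the mean sex difference in the other tissues for 0 members and 0% of all genes, with 4 members and 668 genes at an unadjusted p under 0.05 and 2 members and 0.362% of all genes called by DESeq2.

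The gene called in the papilla ectoderm was ENSGALG00000006190.4, named after its values were seen. It stood at 0.246 and 1.31 CPM in males and at 40.2 and 3.16 CPM in female 1 and female 2, with a log2 difference of -4.24 ± 0.99 (SE) and an adjusted p of 0.0393 (edgeR). The females lay above the males without overlap, female 1 far above female 2. The papilla ectoderm library of female 1 was the shallowest of all, at 12514383 counts. It held 1431 CPM of the collar list, against 294 to 572 CPM in the papilla ectoderm of the other birds. Of the dermal papilla list it held 5892 CPM, against 1398 to 4842 CPM. The part of this in the call was not tested. Leaving out 1 library of certain other tissues already removed the call. These were either male lower sheath library, any upper sheath or pulp library, and either female dermal papilla library. The call was lost without female 1 (log2 difference -1.56) or male 1 (-3.60), the latter being the papilla ectoderm library poor in pulp genes, and without male 2 there were 8 calls among the members, where 19.5% of all genes were called.

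Outside their peak tissue, the members were compared between the dermal papilla and the upper sheath, a contrast that the rule limits from above but does not order. By edgeR's quasi-likelihood test, 11 members were higher in the dermal papilla and 6 in the upper sheath, where 16.8% of all genes passed in each direction and 33.6% in either. All 100 members passed the filter over the 24 libraries, to which their lower sheath counts contribute, and 39 had under 1 CPM in both tissues, of which 1 was called. With the 8 libraries of these 2 tissues alone, 75 members passed the filter, of which 25 were called (33.3%), against 46.5% of all genes. The part of low counts in the members' share was not tested. Nor was that of the spread between lower sheath libraries, which enter the main fit. Nothing is read from the size of the share. The median log2 difference, dermal papilla minus upper sheath, was 0.30 over the members and 0.01 over all genes. It was 0.25 over 96 members when genes with 0 counts in a whole group were set at their bound, leaving out 4 with at most 3 counts in both groups. Over the 75 members of the fit to 8 libraries it was -0.04, and without the dermal papilla of female 2 it was -0.01, so that no direction of the list is given. With the bird as a block, 22 members passed, including all 17, and 38.8% of all genes. Members called numbered 10 without the upper sheath of male 1 (27.2% of all genes), 9 without that of male 2 (23.4%), 11 without that of female 1 (23.3%) and 10 without the dermal papilla of female 2 (23.3%). They numbered 29 without the 3 libraries that stood apart (36.3%).

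ENSGALG00000007782.4 had the smallest p among members higher in the dermal papilla. It stood there at 6.98, 7.02, 3.47 and 3.68 CPM in male 1, male 2, female 1 and female 2, against 0.371, 0.44, 0.335 and 0.161 CPM in the upper sheath. The log2 difference was 4.0 ± 0.66 (SE, adjusted p = 0.00037, edgeR), with no overlap and in all 4 birds, and the males lay above the females in the dermal papilla. ENSGALG00000000252.3 followed, at 1.42, 5.16, 2.07 and 4.51 CPM against 0.139, 0.807, 0.335 and 0.846 CPM, with a log2 difference of 2.64 ± 0.69 (SE, adjusted p = 0.009, edgeR). It lost the call without male 2 in the dermal papilla, with an adjusted p of 0.0501 by edgeR.

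In the opposite direction, ENSGALG00000003925.4 stood at 3.52, 2.57, 2.20 and 2.50 CPM in the upper sheath of male 1, male 2, female 1 and female 2 and at 0.0812, 0.0759, 0.0846 and 0.255 CPM in the dermal papilla. Its log2 difference was -4.42 ± 0.66 (SE, adjusted p = 0.000181, edgeR). The size of this difference rests on few counts, since 1 count was worth 0.0364 to 0.0423 CPM in the dermal papilla libraries. ENSGALG00000028966.1 was similar, at 4.59, 4.88, 5.90 and 5.20 CPM in the upper sheath against 0.406, 0.38, 0.507 and 0.40 CPM in the dermal papilla, a log2 difference of -3.56 ± 0.56 (SE, adjusted p = 0.000281, edgeR). Both genes differed without overlap in every bird, and both kept the call under all 14 alternatives tried. Their lower sheath levels were 15.3 to 94.3 CPM and 7.19 to 51.5 CPM, with female 2 highest for both. In male 1, male 2 and female 1 the first stood at 19.6, 35.5 and 15.3 CPM. The second stood at 10.9, 11.8 and 7.19 CPM in these birds, the last beside 5.90 CPM in the upper sheath of female 1.

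**Figure D5:**
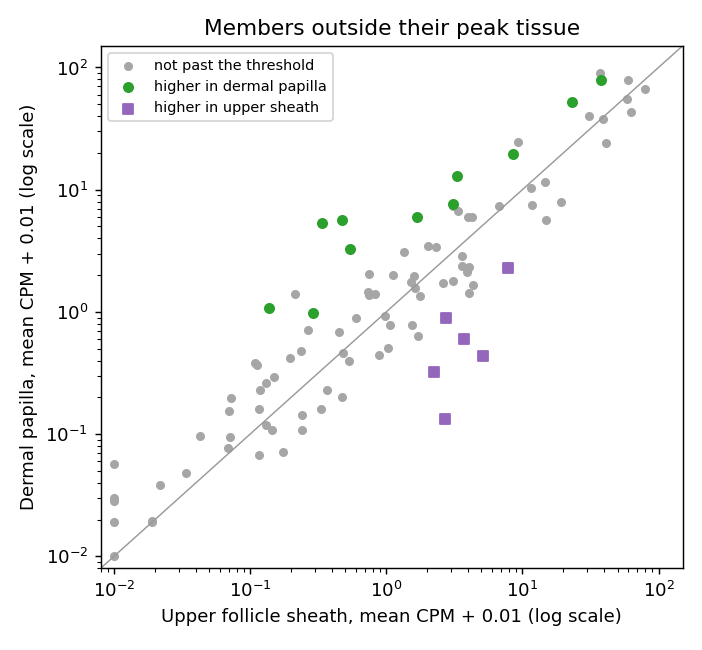
Mean CPM of each member in the upper sheath and the dermal papilla on log axes, with 0.01 CPM added to both. The 11 members higher in the dermal papilla (green) and the 6 higher in the upper sheath (violet squares) lie off the diagonal of equal level, and the others (grey) scatter around it.

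Peak lists of the other tissues were made by the same rule. Beside them, the lower sheath list was in these values the most uneven between libraries of its tissue, with no test of that difference. The coefficient of variation over the 4 libraries of the own tissue had a median of 77.5% for the lower sheath members, against 55.2% for the papilla ectoderm list, which holds 66 genes, 52.9% for the collar list, 42.4% for the upper sheath list, 36.1% for the pulp list and 29.5% for the dermal papilla list. Without female 1 the median for the lower sheath members was 73.1%. The ratio of the highest to the lowest summed level was 5.11 for the lower sheath, 2.94 without female 1 and 2.03 without female 2. With no library left out, it was 1.22 for the upper sheath, 1.28 for the pulp and 1.5 for the papilla ectoderm. It was 1.57 for the collar and for the dermal papilla. The median score was 35.3 for the collar list, 16.9 for the lower sheath list and 6.88 for the pulp list. It was 3.84 for the upper sheath list, 3.25 for the dermal papilla list and 3.03 for the papilla ectoderm list. Lower sheath libraries also carried 4953 to 6817 CPM of the dermal papilla list and 2083 to 4014 CPM of the upper sheath list, and female 1 was highest and female 2 lowest of the 4 in both.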

How the data were processed

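The authors deposited raw counts per gene for 24 libraries, as whole numbers per the file headers and the values. Per the labels' protocols, RNA was extracted with TRIzol and polyadenylated RNA was prepared with an Illumina TruSeq kit. The submitters' processing notes name build galGal4 and list HTSeq 0.6.0, STAR 2.4.1d and edgeR without their roles. The annotation release and the strand setting were not given in the sources used here, so counts that overlapping or near-identical genes share are uncertain.

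CPM used file totals. Tests used edgeR 4.0.16 in R 4.3.3 (TMM, filterByExpr with minimum count 10, quasi-likelihood F test, 12 group means, 12 residual degrees of freedom), fitted to all genes with Benjamini-Hochberg adjustment over 14077 genes and a threshold of 0.05; all 100 members passed the filter, and 75 passed with the 8 libraries of upper sheath and dermal papilla. The edgeR steps were run on counts simulated from the fitted spread, with changes only in genes above a minimum mean count. The simulation held no extreme library and did not single out genes near 0 in a tested tissue, so these were not tested. DESeq2 1.42.0 was an alternative. P-values rest on the spread between the 2 birds of a sex within a tissue, pooled over the 12 groups, so a spread particular to the lower sheath is not measured. The main fit treated the 24 libraries as independent and did not use the pairing by animal. Replicates were no duplicates: the median chi-square per gene between them was 4.56 to 34.6.

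Tissues are paired by animal, per the labels; deviations of upper sheath and dermal papilla from their group means correlated at 0.32 in males and 0.31 in females over 8309 genes. Members and lists were chosen with earlier results of these data known. Marker lists by symbol were not used, since the identifiers could not be matched to the 25635 rows of the reference table. Genes were named by a rule: at most 2 identifiers per direction with the largest score, highest mean, extreme female 1 ratio, smallest p or place at the threshold; exceptions are stated.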

Additional observations from a re-analysis of the deposited data

Results flagged for a closer look

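A library was noted where its gap to the nearest of the 4 libraries of its tissue, both sexes together, relative to their range exceeded Dixon's critical value for 4 samples, a limit that chance passes in about 1 in 20 groups. Among the 100 members 27 did so in the lower sheath, 26 of them with female 2 as the highest library, against 7.84% of the 8633 genes with at least 10 CPM there. The rule used the mean of these same 4 libraries and so favours genes with 1 very high library, and nothing is read from the difference. Of the named genes, ENSGALG00000000302.4 (gap 0.988 of the range), ENSGALG00000009844.4 (0.98), ENSGALG00000028966.1 (0.897), ENSGALG00000006190.4 (0.879), ENSGALG00000000252.3 (0.855) and ENSGALG00000026366.1 (0.837) stood out in the lower sheath of female 2, and ENSGALG00000007868.4 (0.852) in that of male 1. Outside the lower sheath, ENSGALG00000006190.4 stood out in the papilla ectoderm of female 1 (0.927) and ENSGALG00000003925.4 in the dermal papilla of female 2 (0.952), where its level was 0.255 CPM.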

How the results depend on the processing

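The list itself kept 86 to 92 genes with each bird left out in turn and 87 to 93 with each lower sheath library left out, and 99 with TMM scaling, 96 with a score constant of 1 CPM and 87 with medians. Without the lower sheath of female 2, 13 members fell under a threshold, and without that of male 1, 6 did. Members with a sex difference in the lower sheath numbered 0 to 2 with each of its libraries left out in turn, 2 by DESeq2 and 5 without the 3 libraries that stood apart. In the pulp they numbered 1 by DESeq2 and 2 without those 3 libraries, and in the papilla ectoderm 2 by DESeq2, 0 without those 3 and 0 to 8 with each of its libraries left out in turn. DESeq2 called 2 members for the difference between the sex differences. The median sex difference in the lower sheath ran from -1.32 to 1.04 with each of its libraries left out in turn, and that of ENSGALG00000000302.4, -5.41 with all libraries, ran from -6.50 to 1.17, the last without female 2. Between dermal papilla and upper sheath, 29 members passed without the 3 libraries, 22 with the replicate block (paired by bird) and 9 to 20 with each library of the 2 tissues left out in turn. Calls were fewest without the upper sheath of male 2 (9), male 1 (10) or female 1 (11) or the dermal papilla of female 2 (10). RLE scaling and no filter changed none of these counts. The summed level differed 2.03 to 5.11 times between lower sheath libraries with each left out in turn. The fits without the 3 libraries and the alternatives for the summed level were chosen after seeing the data. The cause of each change was not tested. The sexes have 2 birds each, and a left-out library leaves a lone bird that is assumed to vary like the other groups. Levels near 0.0799 CPM, the worth of 1 count in the shallowest library, cannot be told from 0.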
